A study of Oryza sativa with 46 samples.

Results

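Banikat is a japonica rice cultivar from India that the study classed as moderately tolerant of salt. The arrays labelled Banikat, chosen by their titles alone, were 6 of the 46 arrays of the series, 3 labelled 120 mM NaCl and 3 labelled 0 mM. Each array held RNA of 1 whole seedling, 16 days old, of which sections of root, stem and leaf stood for the plant where it was heavy. The seedlings grew in Yoshida nutrient medium, and those of the 120 mM group had been in NaCl, with CaCl2 added at a molar ratio of 1:6, for 48 h. The other japonica cultivar, Nipponbare, and the indica cultivars Pokkali, PSBRc50, IR58 and BRRIdhan 29 had the same 2 treatments and served for comparison, while the wild Oryza rufipogon and Oryza latifolia entered the fit for its shared spread and are otherwise named only beside a value. The single-colour Agilent arrays measured 42477 probes for 29690 loci. Between 30957 and 36693 probes were well above background on the Banikat arrays and between 20914 and 36287 on the others.

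Salt draws water from plant cells and loads them with sodium, and rice seedlings answer with abscisic acid (ABA). Binding of ABA to its receptors holds back clade A protein phosphatases 2C, which frees SnRK2 kinases, in rice called SAPK, to activate bZIP transcription factors. Among the best known targets are dehydrins and other LEA (late embryogenesis abundant) proteins, hydrophilic proteins that shield membranes and enzymes when cells dry, and these genes serve widely as salt and drought markers. Potassium channels and sodium transporters set the ratio of both ions in the shoot, and growth genes such as those for histones and ribosomal proteins often fall under stress.

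The labels of the Banikat arrays were checked against the data before any comparison. Across all probes, with the median of each probe over all arrays subtracted, the 4 arrays of replicates 1 and 2 correlated with the mean of the other arrays labelled Banikat at r = 0.608 to 0.784. Both replicate 3 arrays stood apart from them, with r = 0.0361 for the array labelled 0 mM and 0.0973 for that labelled 120 mM, and were closest to the arrays labelled Nipponbare (r = 0.424 and 0.481). Conversely, the arrays labelled Nipponbare 120 mM replicate 3 and PSBRc50 120 mM replicate 3 correlated with the Banikat mean at 0.843 and 0.804. These correlations are descriptions across probes of single arrays. Which of these arrays carried Banikat RNA cannot be told from them, so results come first without the replicate 3 arrays and then with them. In all, 8 arrays that resembled another genotype than their label were left out, and 38 remained.

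The treatment labels were checked in the same way. Os11g0454300, annotated as a dehydrin, had a level on the log2 scale of 16.21 and 17.71 on the arrays labelled 0 mM of replicates 1 and 2, against 6.27 and 7.58 on those labelled 120 mM. In the replicate 3 pair the level was 7.52 on the array labelled 0 mM and 15.67 on that labelled 120 mM. The marker was thus high on the arrays labelled unstressed in replicates 1 and 2, and on the array labelled stressed in replicate 3, with no overlap between high and low arrays. Over the 22 pairs of arrays that a genotype had on 1 slide, it was higher on the array labelled 120 mM in 17 and lower in 5, namely Banikat 1 and 2, Nipponbare 1 and 2 and PSBRc50 3. These pairs go by label and include arrays that resembled another genotype. In PSBRc50 3 the array labelled 120 mM resembled Banikat, so that difference may also hold a difference between genotypes. The order of the arrays on the slides was unusual in 4 of these 5 pairs. The array labelled 0 mM came first in 18 of the 22 pairs and that labelled 120 mM came first in 4, which were Banikat 1 and 2 and Nipponbare 1 and 2, while PSBRc50 3 had the usual order. An opposite response and an exchange of treatment labels or slide positions cannot be told apart here, so every direction below is given by label.

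**Figure D1:**
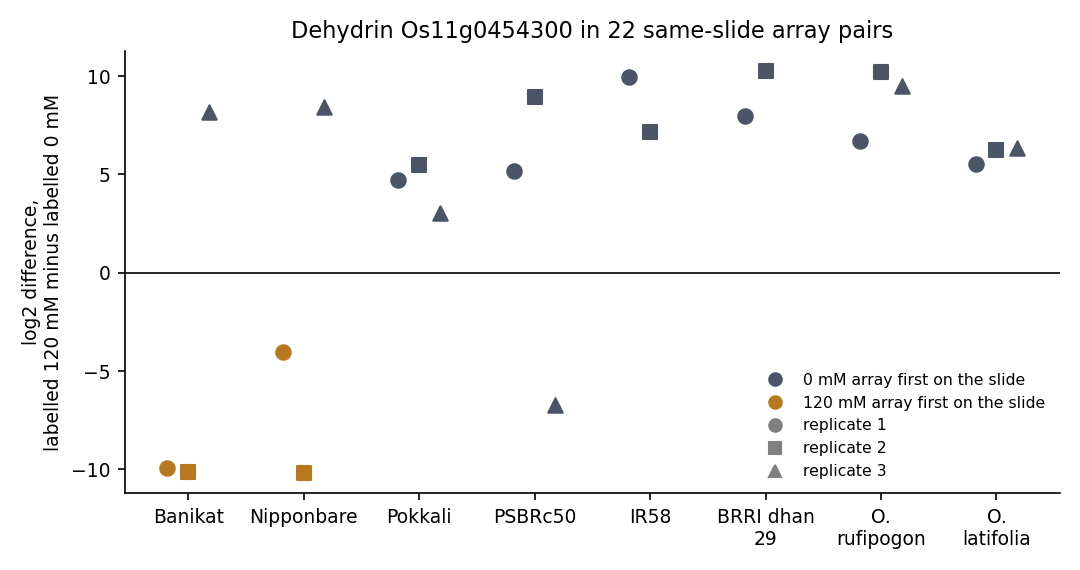
Log2 difference of the dehydrin Os11g0454300 between the array labelled 120 mM and that labelled 0 mM on the same slide (vertical axis) for the 22 pairs of the 8 genotypes (horizontal axis), with the marker shape giving the replicate and the colour the order on the slide. All 4 pairs with the 120 mM array first lie below 0, at −9.94 and −10.13 for Banikat and at −10.18 for Nipponbare replicate 2, with Nipponbare replicate 1 less far, and of the 18 others only PSBRc50 replicate 3 does.

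Between the arrays labelled 120 mM and 0 mM of Banikat replicates 1 and 2 (n = 2 and 2), 3408 of 42477 probes (8.02%) differed at an adjusted p of at most 0.05, 1835 (4.32%) higher and 1573 (3.7%) lower under the label 120 mM. The 15 described loci with the largest fall, by 82.01-fold or more, included dehydrins and other LEA proteins, an ABA-induced membrane protein and a protein phosphatase 2C, while histone, replication and ribosomal protein genes were among those higher. Since whole seedlings were used, fewer cells of a type and less RNA per cell cannot be told apart. The test was limma's moderated test with a spread shared by the 16 groups, and 9058 probes had an unadjusted p under 0.05. The count rested on the shared spread and on single arrays: the 4 arrays alone gave 0 called probes (7694 at an unadjusted p under 0.05), as did the fit of all 46 arrays (3167 unadjusted), and a fit of the 44 arrays other than Banikat replicate 3 gave 333. Leaving out the array labelled 0 mM replicate 2, 0 mM replicate 1, 120 mM replicate 1 or 120 mM replicate 2 gave 268, 5817, 561 or 1654. An exact permutation test on 2 against 2 arrays cannot fall below a two-sided p of 0.333.

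With 1 probe a locus (the brightest), 2402 of 29690 loci (8.09%) were called, 1302 higher (4.39%) and 1100 lower (3.7%), and of the 3790 loci for which the study's tables give an informative description 409 (10.8%), 182 higher (4.8%) and 227 lower (5.99%). These described loci were listed by the study from these same samples, so their counts are not independent evidence of a direction. The gene groups below are drawn from these descriptions, and their counts are to be read against these shares. Over all groups together, organ markers aside, 83 loci were called. That number was 9 without 0 mM replicate 2, 124 without 0 mM replicate 1, 13 without 120 mM replicate 1, 43 without 120 mM replicate 2, 6 in the fit of 44 arrays and 0 in that of all 46, so the group counts rest on the choice of arrays. The median change over all loci was −0.03.

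Of the 12 dehydrin and LEA loci, 7 were lower under the label 120 mM and 0 higher, with a median log2 difference of −4.95. The group 3 LEA protein Os05g0542500, by its most changed probe, had levels of 14.84 and 16.91 on the arrays labelled 0 mM and 4.34 and 6.76 on those labelled 120 mM. This difference of −10.32 ± 1.87 (SE; limma adjusted p = 0.00151) exceeded by far the distance between replicates, and both treatments were well above background. The dehydrin RAB 16B, Os11g0454200, stood at 13.40 and 15.73 against 4.59 and 4.03 (difference −10.25 ± 1.68, adjusted p = 0.000604). Os11g0454300 differed by −10.03 ± 1.45, or 1049-fold (adjusted p = 0.00017, but 0.0886 in the fit of 44 arrays and 0.141 in that of the 4 Banikat arrays alone). These 3 genes gave the largest losses of signal among the described loci. The LEA repeat protein Os03g0168100 fell from 9.94 and 12.06 to 1.26 and 2.53, with 1 of the 2 arrays labelled 120 mM not well above background (difference −9.11 ± 1.63, adjusted p = 0.00139). The dehydrins RAB25 (Os01g0702500, −6.55 ± 1.46) and COR410 (Os02g0669100, −3.07 ± 0.80) and the LEA group 1 protein Os04g0589800 (−7.21 ± 1.73) completed the 7. The other 5 loci did not pass the test: the embryonic abundant protein Os05g0349800 had a difference of −3.35 (adjusted p = 0.135), and 4 LEA loci lay between −0.47 and 0.56. The number called was 2 without 0 mM replicate 2, 4 without 120 mM replicate 1, 5 without 120 mM replicate 2 and 0 in the fit of 44 arrays. All 7 called loci had the opposite sign in the replicate 3 pair, where the median of the list was 2.30, although Os04g0589800 was not well above background on either of those arrays.

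**Figure D2:**
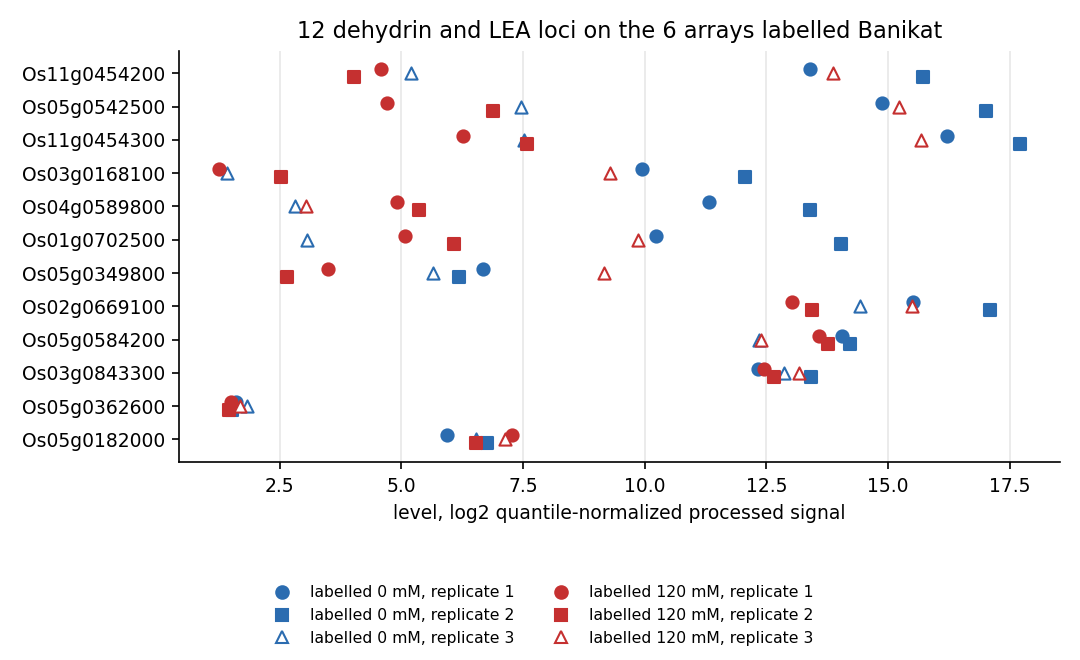
Levels (log2 quantile-normalized processed signal, horizontal axis) of the 12 dehydrin and LEA loci on the 6 arrays labelled Banikat, 1 point an array, by the brightest probe of each locus. For Os11g0454300 the filled blue points (labelled 0 mM, replicates 1 and 2) lie at 16.21 and 17.71 and the filled red points (labelled 120 mM) at 6.27 and 7.58, while the open triangles of replicate 3 lie the other way round at 7.52 and 15.67.

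Some ABA signalling genes were lower as well. Of the 21 loci described as protein phosphatases 2C, 5 were lower and 0 higher. This group was not limited to the clade A members, which restrain the pathway. Of 9 clade A loci in a list set aside (see the processing), 4 were lower and 0 higher. Os06g0698300 had levels of 12.32 and 14.62 against 6.00 and 6.91 (−7.01 ± 1.14, adjusted p = 6e-04), and Os05g0572700 had 9.40 on the replicate 1 array labelled 0 mM against 4.48 on that labelled 120 mM, with replicate 2 differing likewise (−4.98 ± 1.06, adjusted p = 0.00436). In replicate 3 these 2 genes differed by 5.74 and 3.12. Of 6 SAPK kinases, 1 passed: Os03g0390200, 12.40 and 13.75 against 10.35 and 10.54 (−2.63 ± 0.56, adjusted p = 0.00465). The other 5 had differences between −0.59 and 0.93. Neither of the 2 loci for ABA synthesis passed, the 9-cis-epoxycarotenoid dioxygenase Os03g0645900, which makes the ABA precursor, having a difference of −0.40. The ABA-induced plasma membrane protein PM 19, Os05g0381400, stood at 11.85 and 14.25 against 5.68 and 2.43 (−8.99 ± 1.40, adjusted p = 0.000387).

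Among transcription factors, 6 of 14 HD-Zip homeobox and ABA-related bZIP factors were lower and 0 higher. The homeobox-leucine zipper gene HOX6 (Os02g0649300) was at 8.99 and 12.45 on the arrays labelled 0 mM and not well above background on either labelled 120 mM (1.71 and 2.04), so that it was at least 436-fold lower there (adjusted p = 0.00398). The bound sets the mean of the brighter arrays against that of the dimmer ones. Each dimmer array counts at its lowest signal well above background, or at the gene's own level where that is higher. The fitted difference of HOX6 was 461.7-fold. Os04g0541700, with a homeobox domain, was at 14.47 and 15.77 against 9.01 and 10.27 (−5.47 ± 1.05), and the ABA response element binding factor Os01g0859300, of the family that binds ABA-responsive promoters, differed by −3.04 ± 0.79. Of 18 NAC factors 5 were lower and 0 higher, led by Os05g0421600 at 14.11 and 15.24 against 10.72 and 10.93 (−3.85, adjusted p = 0.000221). OsNAC5 (Os11g0184900) differed by −2.22 (adjusted p = 0.0417). Of 15 DREB and ethylene response factors 2 were lower, the DRE binding protein 2 gene Os01g0165000 (−1.63) and the ethylene response factor 3 gene Os04g0669200 (−1.72). In these 3 groups, in this order, 0, 1 and 0 were called without 0 mM replicate 2 and likewise without 120 mM replicate 1. Without 120 mM replicate 2 the numbers were 4, 1 and 0, without 0 mM replicate 1 they were 7, 4 and 4, and in the fit of 44 arrays 1, 1 and 0. None of 25 WRKY factors, 16 response regulators or 4 TIFY proteins, the last being jasmonate repressors, passed, with medians of −0.31, 0.22 and −0.34.

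Heat shock proteins, which keep other proteins folded, had 6 lower loci and 1 higher of 26. The heat shock protein 70 Os03g0277300 was at 10.16 and 11.84 against 4.84 and 4.88 (−6.14, adjusted p = 0.000227) and the heat shock protein 82 Os09g0482600 at 9.63 and 11.07 against 4.15 and 3.58 (−6.49, adjusted p = 0.000688). The DnaJ family member Os01g0730500 was the 1 higher locus, at 9.15 and 8.70 against 11.97 and 12.22. Detoxifying and defence enzymes were mixed. Of 48 cytochromes P450, 6 were lower and 2 higher, of 14 glutathione S-transferases 2 lower and 1 higher, and of 18 chitinases and pathogenesis-related proteins 2 lower. Glutathione S-transferase GST 26 (Os01g0692000) stood at 9.08 and 10.91 against 6.20 and 6.02 (−3.88, adjusted p = 5.09e-05). Of 55 secreted haem peroxidases, which act on the cell wall, 5 were higher and 0 lower. The number called was 0 without 0 mM replicate 2, without 120 mM replicate 1, without 120 mM replicate 2 and in the fit of 44 arrays, and 8 without 0 mM replicate 1. None of the 8 ascorbate peroxidases, catalases and superoxide dismutases passed (median 0.11).

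Of 8 sodium and potassium transport loci, 1 was called higher and 2 lower. The potassium channel AKT1 (Os01g0648000), a root uptake channel, was higher at 8.60 and 9.49 against 10.13 and 10.45 (1.24 ± 0.38, adjusted p = 0.0429). The potassium transporters Os06g0625900 (−1.50, adjusted p = 0.0493) and Os07g0669700 (−1.44, adjusted p = 0.048) were lower, the latter from a probe that the file's name columns assign to different loci. All 3 lay close to the threshold, and 0 were called without 0 mM replicate 2 or 120 mM replicate 1, 1 without 120 mM replicate 2 and 0 in the fit of 44 arrays. The HKT-type sodium transporter Os06g0701700 had levels of 6.81 and 8.67 against 6.79 and 5.72 (difference −1.48, adjusted p = 0.492), and the sodium/hydrogen exchanger Os09g0286400 differed by −0.79 (adjusted p = 0.255). None of 9 aquaporins, 5 nitrogen genes or 4 loci for proline, trehalose and raffinose synthesis passed. Of 8 iron acquisition loci, Os05g0474600 was lower (10.34 and 12.18 against 8.00 and 8.86). It is described as a deoxymugineic acid synthase, an enzyme for the iron chelator secreted by grass roots, and this function was not tested. In the iron acquisition list that was set aside (see the processing), 0 of 8 loci were higher and 0 lower. A nicotianamine synthase locus, Os03g0307300, was at 9.95 and 6.32 against 12.11 and 8.71, its 2 replicates being further apart than its treatments (2.28 ± 2.46, adjusted p = 0.717).

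Many histone and ribosomal protein genes were higher under the label 120 mM. Of 15 histone loci, whose proteins package newly copied DNA, 9 were higher and 0 lower, with a median of 2.60. The histone H3 Os06g0160100 had levels of 10.92 and 5.63 on the arrays labelled 0 mM and 13.44 and 13.26 on those labelled 120 mM (5.07 ± 1.12, adjusted p = 0.00585), so the distance came largely from 0 mM replicate 2. Without that array its difference was 2.43 (adjusted p = 0.392) and 0 histone loci were called, against 1 without 120 mM replicate 1, 7 without 120 mM replicate 2 and 0 in the fit of 44 arrays. The histone variant H2A.F/Z gene Os10g0418000 was at 10.51 and 7.93 against 13.08 and 12.81 (3.72, adjusted p = 0.00156). Of 48 ribosomal protein loci 17 were higher and 0 lower, with a median of 1.12. The number called was 0 without 0 mM replicate 2, 28 without 0 mM replicate 1, 1 without 120 mM replicate 1, 9 without 120 mM replicate 2 and 1 in the fit of 44 arrays. The acidic protein P2A of the large subunit (Os01g0191100) was at 13.05 and 11.25 against 14.55 and 14.14 (2.19, adjusted p = 0.00207). Of 37 expansins and xyloglucan enzymes, which loosen cell walls, 2 were higher. None of the 13 loci for light harvesting, photosystems and Rubisco passed, though 10 of them were higher in both pairs (median 0.88).

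**Figure D3:**
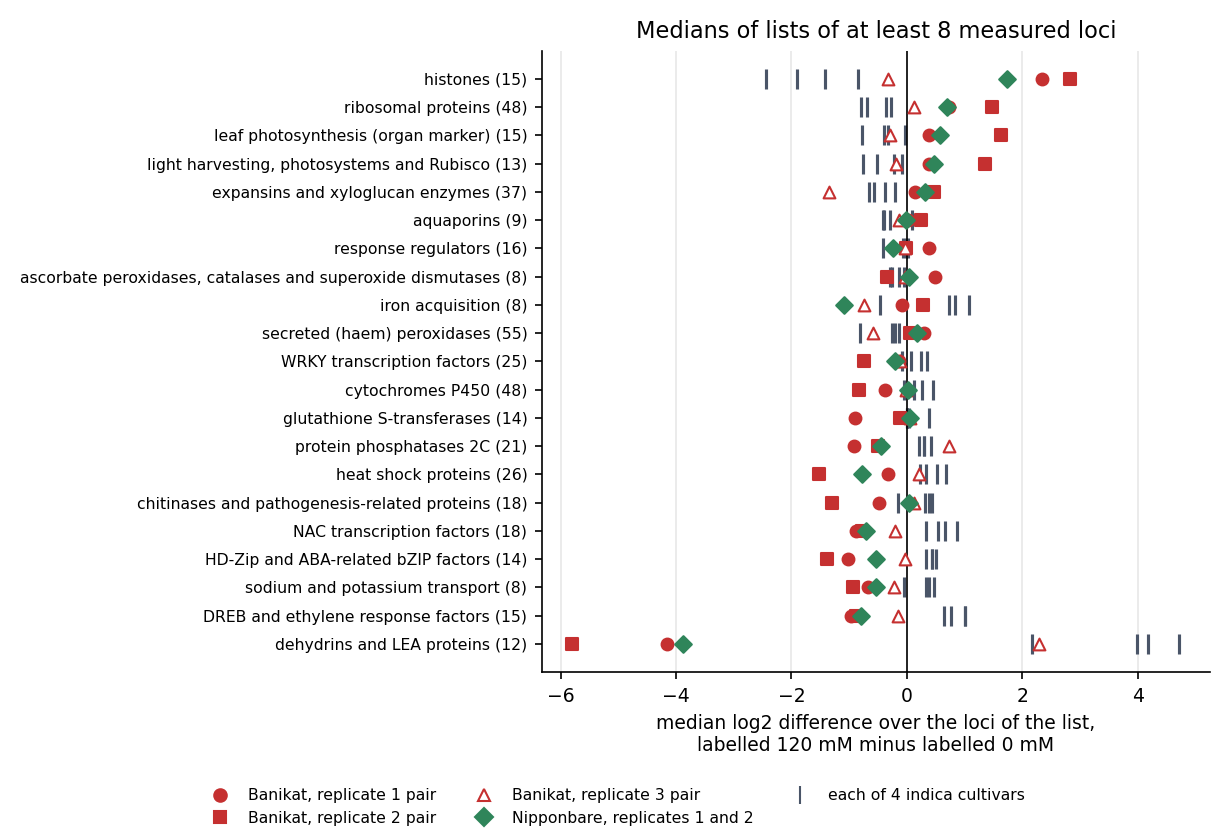
Median log2 difference, labelled 120 mM minus labelled 0 mM (horizontal axis), over the loci of each group of at least 8 measured loci (number in brackets), with circles, squares and open triangles for the Banikat pairs of replicates 1, 2 and 3, diamonds for Nipponbare replicates 1 and 2, and vertical ticks for each indica cultivar. Dehydrins and LEA proteins lie at −4.16 and −5.80 for Banikat replicates 1 and 2, at −3.89 for Nipponbare, at 2.30 for Banikat replicate 3 and between 2.17 and 4.73 for the indica cultivars.

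Outside these groups, the described loci with the greatest rise were led by a pepsin-type peptidase, Os12g0583300, at 5.47 and 2.75 against 10.96 and 12.30 (7.52 ± 1.36, adjusted p = 0.0015). The peptidase M20 family gene Os03g0836800 was not well above background on either array labelled 0 mM and at 9.57 and 8.44 under the label 120 mM, at least 117.5-fold higher. A lipoxygenase, Os02g0194700, an enzyme class that starts jasmonate synthesis, was at 8.55 and 1.79 against 11.46 and 11.62, again with 0 mM replicate 2 far below replicate 1. So were the DNA replication genes Replication protein A1 (Os03g0214100, 8.34 and 3.08 against 11.22 and 10.82), Replication origin activator 2 (Os05g0476200, 7.74 and 2.33 against 10.13 and 10.05) and MSI1 (Os09g0540600, 7.39 and 2.63 against 10.30 and 10.02), whose protein takes part in chromatin assembly. The brassinosteroid co-receptor-like kinase Os11g0514400 differed by 6.44 and the protein kinase Os11g0691500 by 6.11, the latter not well above background on either replicate 3 array. The other named rises were phosphoglucomutase (Os06g0476200), a ubiquitin carrier protein (Os01g0273100), an HMG box protein (Os08g0101100), a nucleic acid-binding OB-fold protein (Os02g0829100), histone H2A (Os03g0162200) and a haem peroxidase (Os05g0135500), between 4.70 and 6.26. Among falls not yet named, the release factor eRF1 gene Os05g0373900, whose protein ends translation, was at 12.42 and 13.74 against 4.81 and 6.42, and the actin-binding cofilin-type gene Os03g0820500 at 14.67 and 16.67 against 7.97 and 9.61. A reverse transcriptase domain gene (Os03g0561400, −7.22) and a cold-regulated protein gene (Os05g0468800, −6.36) were lower too. Of loci with no description, Os07g0628900 (8.87) and Os02g0230300 (8.71) were highest and Os11g0451700 (−10.91) and Os11g0181200 (−10.86) lowest.

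**Figure D4:**
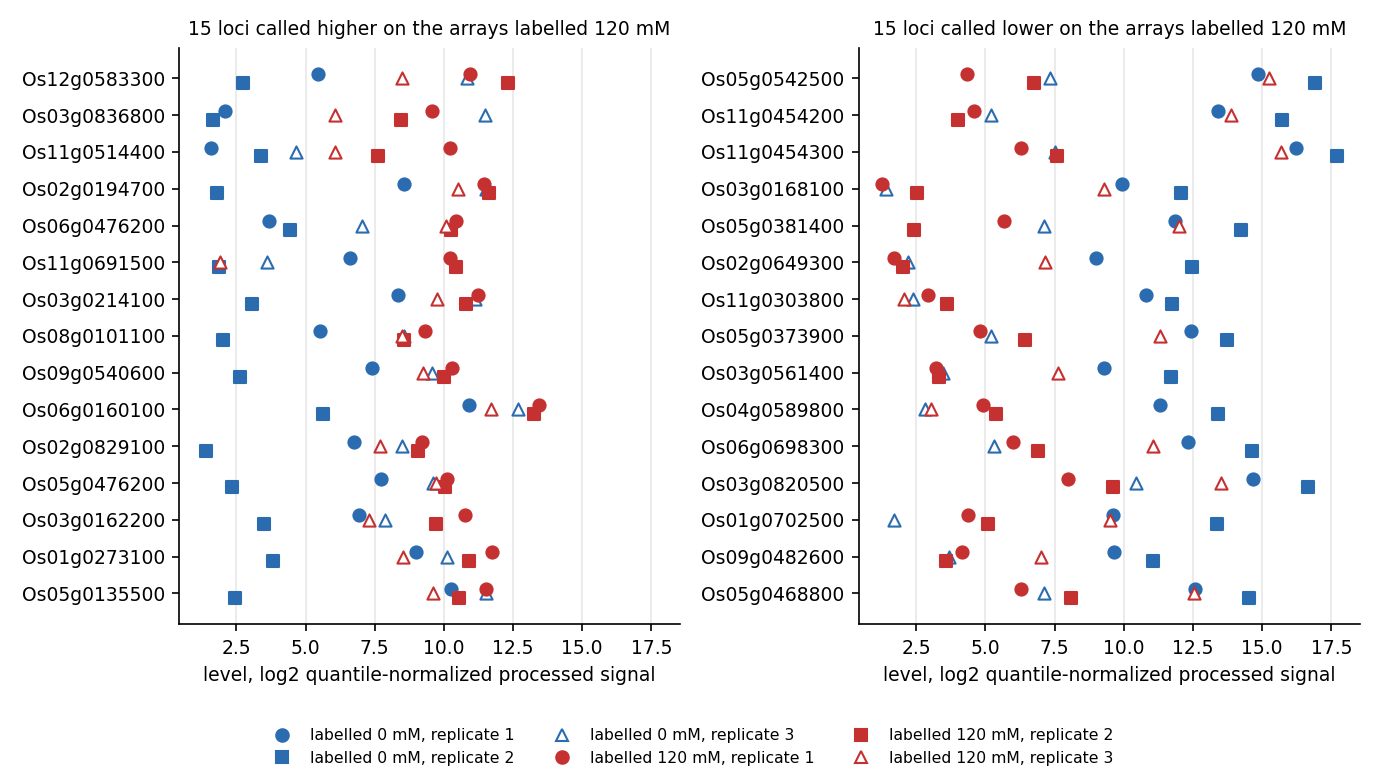
Levels (log2 quantile-normalized processed signal, horizontal axes) on the 6 arrays labelled Banikat of the 15 described loci with the largest rise (left) and the 15 with the largest fall (right), blue for 0 mM and red for 120 mM labels, with open triangles for replicate 3. On the left the blue squares of 0 mM replicate 2 often lie far to the left, as for histone H3 Os06g0160100 at 5.63, and on the right the open triangles mostly run against the filled points, as for Os05g0542500 at 7.32 and 15.26.

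The replicate 3 pair was then compared. Of the 3408 called probes, 2432 (71.4%) had the opposite sign in it, with a median replicate 3 difference of −0.23 for probes called higher and 0.75 for those called lower. The correlation across probes of the pairs' differences was 0.53 between replicates 1 and 2, −0.12 between 1 and 3 and −0.26 between 2 and 3. It was 0.42 between the replicate 3 pairs of Banikat and Nipponbare, which share a slide. In that Nipponbare pair the array labelled 0 mM was closest to IR58 (r = 0.419) and that labelled 120 mM to Banikat (r = 0.843). Whether its difference also holds a difference between genotypes was not tested. In the fit of all 46 arrays (n = 3 and 3) the difference of Os11g0454300 was −3.97 ± 2.78 (adjusted p = 0.863), and none of the 34 named loci passed. The replicate 3 pair fitted alone beside the other groups, with the lone arrays assumed to vary like them, gave 23 called probes, 12 higher and 11 lower, and 3092 at an unadjusted p under 0.05.

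Banikat was set against Nipponbare, whose replicates 1 and 2 lay on the same slides in the same order of labels. The difference between treatments differed between the cultivars for 74 of 42476 probes (0.174%), 35 higher (0.0824%) and 39 lower (0.0918%) in Banikat, and for 1498 at an unadjusted p under 0.05. Of the Banikat calls, 3234 (94.9%) had the same sign in Nipponbare, for which 455 probes were called by themselves (1.07%). The homeodomain-like gene Os11g0303800 was the clearest case among described loci that Banikat also lowered. Its levels in Banikat were 10.79 and 11.76 against 2.91 and 3.60, with all 4 arrays well above background, while the change in Nipponbare was −0.87 (difference between cultivars −7.15 ± 1.16, adjusted p = 0.00272). The replicate 3 arrays had it at 2.38 and 2.06, not well above background. The sugar transporter Os12g0514000 and the allantoin permease Os12g0502800, which moves a nitrogen-rich purine product, differed through Nipponbare. Their Banikat changes were 1.81 and −1.55, neither called, against −8.19 and 9.13 in Nipponbare. These Nipponbare arrays were closest to their own label, though at r = 0.23 to 0.43 only. Those labelled 0 mM correlated with those labelled 120 mM at 0.19 to 0.32, against 0.48 to 0.76 in Banikat replicates 1 and 2. Whether the Nipponbare changes also hold a difference between genotypes was not tested. The FKBP-type peptidylprolyl isomerase Os01g0563000 was at 10.30 and 8.31 against 12.33 and 12.76 in Banikat and changed by 0.10 in Nipponbare (adjusted p = 0.0456). It was not well above background on either replicate 3 array (2.42 and 1.82). Probes were not required to be above background in Nipponbare, where a dark probe cannot show a change. The dehydrin and LEA list had 0 loci that differed between the 2 cultivars.

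Against the 4 indica cultivars most directions were opposite. Compared with the mean of all 5 other cultivated genotypes, Nipponbare included, 6790 of 42226 probes (16.1%) differed, 3684 higher (8.72%) and 3106 lower (7.36%). Compared with the 4 indica cultivars alone, an alternative chosen after seeing the data, 9388 of 42227 (22.2%) differed, 5131 higher (12.2%) and 4257 lower (10.1%). The IR58 change in both means rests on 1 array labelled 0 mM, assumed to vary like the other groups. Across probes the Banikat change and the indica mean had r = −0.76, and 3303 of 3385 called probes (97.6%) had opposite signs. The dehydrin Os11g0454300 changed by 4.42 in Pokkali, 6.82 in PSBRc50, 10.07 in IR58 and 9.13 in BRRIdhan 29. Banikat minus their mean was −17.65 ± 1.62 (adjusted p = 6.25e-08). Histones ran the other way, with list medians of −0.85 in Pokkali, −1.42 in BRRIdhan 29, −1.90 in IR58 and −2.43 in PSBRc50.

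The same comparison was made with the sign of the Banikat difference turned, labelled 0 mM minus labelled 120 mM, also chosen after seeing the data. Of 42227 probes, 54 (0.128%) then differed from the indica mean, 34 higher (0.0805%) and 20 lower (0.0474%), with 2060 at an unadjusted p under 0.05. A p that misses the threshold does not show that the other probes responded alike. By the brightest probe of each locus, 0 dehydrins, protein phosphatases 2C, NAC factors, histones or ribosomal proteins differed, and 1 cytochrome P450 did. Among the 54 was the homeodomain-like gene Os11g0303800 (turned difference minus indica mean 7.97 ± 0.91, adjusted p = 3.1e-05), which in the 4 indica cultivars changed by −0.34 to 0.90. The class III chitinase Os11g0700900, an enzyme that degrades fungal cell walls, was at 9.64 and 10.55 on the Banikat arrays labelled 0 mM against 4.20 and 4.85. It changed by −0.23 to 0.23 in the indica cultivars and by −3.53 in Nipponbare, the direction of Banikat. Its brightest probe, at 11.16 and 12.39 against 10.08 and 9.67, was lower too but did not pass (adjusted p = 0.0694). A universal stress protein gene (Os03g0750000, 9.75 and 10.14 against 3.33 and 4.22) and a gene for a ribosome-inactivating protein (Os01g0160800, change −4.06 ± 0.65) were likewise high on the arrays labelled 0 mM. Os03g0750000 changed by −2.28 in Nipponbare and by 1.03 to 2.86 in the indica cultivars, and Os01g0160800 by −0.40 in Nipponbare. On the other side, the P450 gene Os07g0218700, the isomerase Os01g0563000 and the NADP-isocitrate dehydrogenase Os05g0573200 were high on the Banikat arrays labelled 120 mM, with turned differences from the indica mean of −3.71, −3.45 and −3.29. In Nipponbare they changed by 0.03, 0.10 and 3.96, the last beside 4.09 in Banikat. These genes were not well above background on either replicate 3 array. Probes were not required to be above background in the indica cultivars either, where a dark probe cannot show a change. The jacalin-related lectin Os01g0348900 had a probe among the 54, at 14.88 and 16.71 against 11.81 and 11.74 in replicates 1 and 2 and not well above background on either replicate 3 array (1.38 and 1.40). Its brightest probe was at 16.62 and 17.95 against 13.90 and 13.96 (−3.36, adjusted p = 0.0765) and did not differ after turning. Both probes were thus lower in Banikat under the label 120 mM. In the indica cultivars the first changed by −0.49 to 0.42, while the brightest rose by 1.73 to 5.07.

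**Figure D5:**
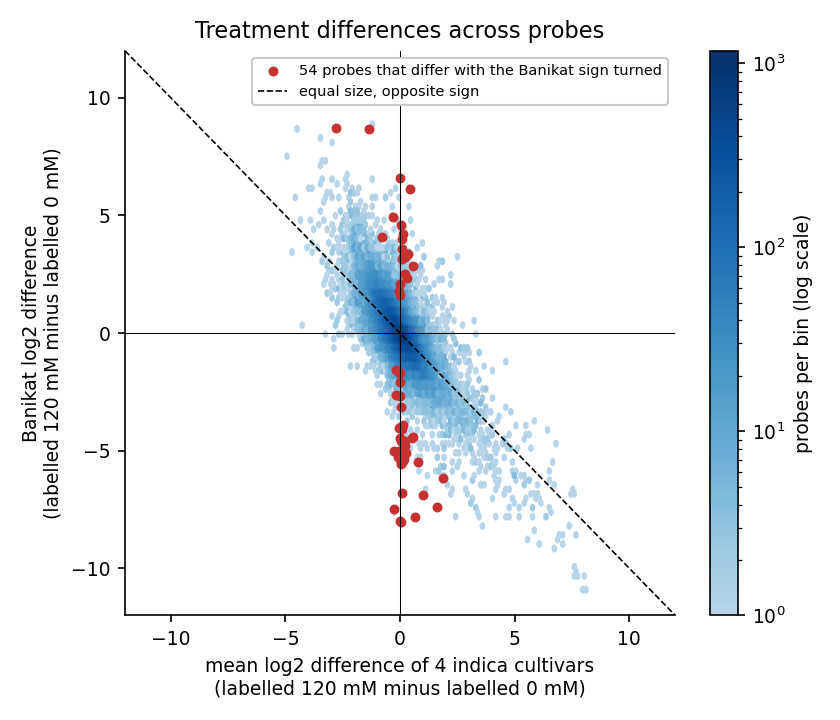
Banikat log2 difference (replicates 1 and 2, vertical axis) against the mean log2 difference of the 4 indica cultivars (horizontal axis), both labelled 120 mM minus labelled 0 mM, with the number of probes in each bin as a colour on a log scale. The cloud of 42227 probes runs along the dashed line of equal size and opposite sign (r = −0.76), and the 54 red points, which differed with the Banikat sign turned, lie off it.

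Organ markers were read beside these changes, because pieces of leaf and root may be present in unequal amounts. Of 15 leaf photosynthesis loci 1 was called higher and 14 were higher in both pairs (medians 0.38 in replicate 1 and 1.64 in replicate 2). Of 7 root loci 0 were called, with medians of 0.75 and 0.78 in replicates 1 and 2 and −1.42 in replicate 3, where 0 of the 7 were higher under the label 120 mM. The medians of both lists were above 0 in replicates 1 and 2, with 4 of the 7 root loci higher in both pairs, and their part in the results was not tested.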

How the data were processed

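RNA of 46 rice seedlings was hybridised to single-colour (Cy3) Agilent arrays on 12 slides, scanned on 6 days. Per the file headers, Agilent Feature Extraction 10.7.3.1 (protocol GE1_107_Sep09) made the deposited processed intensity of each spot, background-subtracted and detrended on the array, and its flags for outlier, saturated and well-above-background spots. The authors also deposited a table of log2 values, quantile-normalized between arrays and shifted by a constant for each probe, used here as an alternative.

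Control spots and spots marked as outliers (0.0562% of probe values) were left out, the log2 processed intensity was quantile-normalized over the 46 arrays, and spots of 1 probe were averaged. Treatment differences were fitted with limma 3.58.1 (R 4.3.3) on 38 arrays, with a mean for each of 16 groups and a shared spread, and p-values were adjusted by Benjamini-Hochberg over all probes. The 8 arrays left out correlated better with another genotype than with their own, a choice made from the data, and no sample was given another label. Every adjusted p is from this limma test unless another setting is named. Groups came from the sample titles. Each replicate was 1 seedling held in a flask of its own. The number of arrays limits the precision.

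Loci were named by the identifiers of the files (35873 probes have a locus in both name columns, 34515 the same one), with descriptions from the study's tables for 3790 loci. The 26 gene groups were drawn by words in these descriptions, with the brightest probe of each locus, and 2 organ marker lists were given as loci. Named genes were the 15 described loci with the largest rise and fall among called probes, by the most changed called probe that was well above background on both arrays of a treatment and did not overlap between treatments, with up to 5 in each direction for the comparisons between genotypes and 2 loci without a description in each direction. Each gene group added up to 4 examples and members that did not pass. Values of a locus may therefore differ slightly between both uses. The 14 lists of loci written first were set aside because no source used here names their loci. Of their 151 measured loci, 2 were higher and 34 lower. They held 1 lower locus of 15 antioxidant enzymes, 1 of 11 jasmonate repressors and 1 of 8 compatible solute loci, with 0 higher. The smaller groups drawn by words had no called locus for these families. The members and lists were chosen with earlier results of these data known.

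Alternatives were other sets of arrays, each array scaled at its 75th percentile, a background correction by normexp (offset 50, median spot intensity), the authors' table, a filter on dim probes, outlier spots kept, the replicate number (of the Banikat arrays only), slide or scan day as a block, and each Banikat array left out. The fit was tested on simulated data. Sequences were not used here.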

Additional observations from a re-analysis of the deposited data

Results flagged for a closer look

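The treatment difference of Banikat differed from that of Nipponbare for 74 probes, from the mean of the 5 other cultivated genotypes for 6790 and from the mean of the 4 indica cultivars for 9388, by limma tests of the difference itself. With the sign of the Banikat difference turned, 54 probes differed from the indica mean.

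The dehydrin Os11g0454300 stands for the opposite direction: its Banikat difference minus the indica mean was −17.65. The homeodomain-like gene Os11g0303800 differed from Nipponbare by −7.15 (limma adjusted p = 0.00272) and also differed from the indica cultivars with the sign turned.

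On the replicate 3 arrays, which the lead comparison did not use, Os11g0454300 was higher by 8.16 on the log2 scale under the label 120 mM, with both arrays well above background. That direction is the one of 17 of the 22 same-slide pairs and not that of Banikat replicates 1 and 2. No group had 4 or more samples, so single arrays were not tested for standing apart.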

How the results depend on the processing

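With 2 arrays a treatment, the counts depended on which arrays entered the fit. With all 46 arrays, 0 probes were called for Banikat, 0 against Nipponbare, 0 against the 5 other cultivated genotypes, 0 of 34 named loci and 0 group loci of 83. At an unadjusted p under 0.05 there were 3167, 456 and 6574 probes. Without the Banikat replicate 3 arrays but with all others (44 arrays), the counts were 333, 9, 3491, 11 and 6. The 4 Banikat arrays alone and the 6 alone each gave 0 probes, 0 named loci and 0 group loci (7694 and 2143 probes unadjusted). Leaving out 1 Banikat array at a time gave 268 to 5817 probes, 51 to 420 against Nipponbare, 2090 to 8353 against the 5 others, 10 to 32 named loci and 9 to 124 group loci. Each lowest count but that against Nipponbare came without 0 mM replicate 2 and each highest without 0 mM replicate 1. The dehydrin Os11g0454300 stayed between −10.78 and −9.29 when 1 array was left out (adjusted p 0.000248 to 0.0123), was 0.0886 in adjusted p with 44 arrays and 0.141 with the 4 Banikat arrays alone, and its adjusted p ranged from 8.02e-05 to 0.913 over all alternatives.

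Against Nipponbare, scaling to the 75th percentile gave 49 probes and normexp background correction 116. Scaling to the 75th percentile put the median of all probes at −0.07. Among alternatives chosen after seeing the data, the turned sign against the 4 indica cultivars gave 54 probes and the Banikat replicate 3 pair alone 23. With the replicate number of the Banikat arrays as a block, and no such term for the other genotypes, 3670 probes were called for Banikat. Against Nipponbare 72 and against the 5 others 7015 were called, with 34 named and 89 group loci, so no call of a named locus changed. Same-numbered arrays did not deviate together (r = −0.01), and the numbers were not taken as pairs. The slide or scan day as a block gave 3530 and 4143 probes. No named locus changed direction in the settings run for it. In the fits without 1 array and in the pairs of replicates 1 and 2 this was fixed beforehand, since named loci had no overlap between treatments. It was also fixed where a setting left the Banikat difference itself unchanged. Os11g0454300 stayed at −10.03 in the fit of 44 arrays, with the 4 Banikat arrays alone and without O. latifolia. The same held with the filter on dim probes and with each block. The replicate 3 pair by itself ran the other way for most called probes. Of the main counts over all settings, 52 stayed within 1.5 times their value and 32 did not. The cause of these dependences was not tested, other than the fewer arrays that the construction of a setting gives. Probes not well above background limit fold sizes to bounds.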
